A study of Mus musculus with 4 samples.

Results

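The small proline-rich proteins (Sprr genes) were examined in epidermis of mice with a conditional knockout of STIM1 and STIM2, the calcium sensors of the endoplasmic reticulum that trigger calcium entry through the plasma membrane once its stores run low. The members are 10 genes of the Sprr1, Sprr2 and Sprr3 groups, chosen by name: Sprr1a, Sprr1b, Sprr2a1, Sprr2a2, Sprr2a3, Sprr2d, Sprr2e, Sprr2h, Sprr2i and Sprr3. They are 10 of the 17 genes named Sprr and of the 56493 genes in the deposited table. The choice was made with their knockout and control values already known, so those values are given as a description, with no p-values. The knockout group (cKO) carried Stim1 and Stim2 deletions made by K14-Cre, a recombinase under the keratin 14 promoter that acts in stratified epithelia and their appendages, and the control group was Stim1/2 fl/fl, which carries the same floxed alleles. Strain, age and sex were not given in the sources used here. Each group had 2 libraries of epidermal RNA from dorsal skin, read from the 3′ end of transcripts and counted per gene.

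Sprr proteins are short, soluble precursors of the cornified cell envelope, the protein shell that replaces the plasma membrane of dying keratinocytes. Transglutaminases join them, through glutamine and lysine residues, to one another and to loricrin, involucrin and other envelope proteins, so that they act as cross-bridges. Normal skin between the hair follicles makes little of most of them, and wounded, inflamed or barrier-deficient skin is known to make more.

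The genes lie side by side in the epidermal differentiation complex. In the deposited table, which uses GRCm39 per the submitters' processing notes, the 17 Sprr genes span chromosome 3 from 92123106 to 92407800, a stretch of 285 kb. Of the 10 members, 7 are on the plus strand, from Sprr2a1 (92123106 to 92129218) to Sprr2i (92315298 to 92316578), and 3 are on the minus strand, Sprr1b (92344116 to 92346096), Sprr3 (92363809 to 92366027) and Sprr1a (92391259 to 92393202). The coding sequences of 2 members are shown because one, Sprr2a1, was the most abundant Sprr2 gene in the knockout libraries and the other, Sprr2h, was the most abundant Sprr2 gene outside the Sprr2a copies. Capitals mark proline codons.
Sprr2a1: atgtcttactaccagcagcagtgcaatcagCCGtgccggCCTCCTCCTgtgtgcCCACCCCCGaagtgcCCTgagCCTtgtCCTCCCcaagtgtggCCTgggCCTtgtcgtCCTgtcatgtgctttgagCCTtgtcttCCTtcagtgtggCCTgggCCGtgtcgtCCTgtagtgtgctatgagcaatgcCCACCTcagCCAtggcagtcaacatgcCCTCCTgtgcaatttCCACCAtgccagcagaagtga
Sprr2h, first 270 bases: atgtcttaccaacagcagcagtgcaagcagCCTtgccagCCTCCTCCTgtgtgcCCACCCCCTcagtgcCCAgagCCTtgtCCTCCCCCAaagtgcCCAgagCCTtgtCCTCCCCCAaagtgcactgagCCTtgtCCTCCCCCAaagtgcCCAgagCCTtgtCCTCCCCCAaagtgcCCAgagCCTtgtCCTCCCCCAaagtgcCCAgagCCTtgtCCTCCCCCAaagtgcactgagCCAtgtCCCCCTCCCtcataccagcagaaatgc
Both were read from GENCODE M21 transcripts.

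Proline took 31.3% of the 83 codons of Sprr2a1 (26 codons) and 42.6% of the 108 codons of Sprr2h (46 codons). Over the 10 members the share ran from 20.6% in Sprr3 to 42.6% in Sprr2h. The Sprr2a copies differed from the other Sprr2 members in lysine, an amino acid that transglutaminases link. Lysine took 2.41% of the codons of each Sprr2a copy (2 codons), against 10.2% in Sprr2h, 10.5% in Sprr2e and Sprr2i and 11.8% in Sprr2d. Glutamine, the partner in that bond, took 13.3% in the Sprr2a copies and 11.1% to 15.8% in the other Sprr2 members. The coding sequences of Sprr2a1 and Sprr2a2 were identical over 252 bases. That of Sprr2a3 differed from them at 3 bases, written as the Sprr2a1 base, its position from the first base of the start codon and the Sprr2a3 base: G63A, G159T and A192T.

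The near identity of the Sprr2a copies limits what their separate counts mean. The second exons of the long transcripts of Sprr2a1 and Sprr2a2 differed at 2 of 2839 bases, and their last 1016 bases were identical. Every stretch of 50 bases in the last 500 bases of Sprr2a1 and Sprr2a2, the part that 3′ libraries sample, was found in another gene (0 of 451 stretches unique). Sprr2a3 had 100 of 451 stretches of its own at the end of its long transcript and 230 of 451 at the end of its short transcript. In each of the other 7 members, between 439 and 451 of 451 stretches were unique. In the table, 43 exon bases also belong to both Sprr2a1 and Sprr2a2. How the authors treated reads that align to several genes is not given in the sources used here. In the whole table, 20 pairs of genes at separate places have identical last 500 bases and at least 10 counts in 1 of the pair, and both genes had counts in 18 pairs, with equal counts in all 4 libraries in 1 pair. These pairs do not settle how shared reads were counted, since reads can also come from bases outside the identical ends. A read may count for more than one Sprr2a copy, so the level of the Sprr2a group is given both as the largest copy, Sprr2a1, and as the sum of the 3 copies.

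The sequence before the start was compared because the Sprr2 members lie in one row and yet ranged from 0 to 252 counts in a library. The windows are from RefSeq, build GRCm38.p6, read 5′ to 3′ on the strand of the gene, and each ends before the first annotated exon base. All 10 members had a window. Capitals mark matches to 4 motifs, searched on both strands in the 250 bases before the start: TGAGTCA (the AP-1 site), ATTTGCAT (the octamer of POU factors), TGGAAA (the core of the NFAT site) and TATAAA (the TATA box). No 2 matches overlapped in the members' windows, and the motifs were picked after the sequences had been seen.
Sprr2a1, chr3:92215599-92215798, plus strand: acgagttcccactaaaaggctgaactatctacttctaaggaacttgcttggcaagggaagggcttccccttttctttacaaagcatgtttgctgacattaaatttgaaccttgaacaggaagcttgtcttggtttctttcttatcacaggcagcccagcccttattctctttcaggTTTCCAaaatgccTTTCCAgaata
Sprr2h, chr3:92385485-92385684, plus strand: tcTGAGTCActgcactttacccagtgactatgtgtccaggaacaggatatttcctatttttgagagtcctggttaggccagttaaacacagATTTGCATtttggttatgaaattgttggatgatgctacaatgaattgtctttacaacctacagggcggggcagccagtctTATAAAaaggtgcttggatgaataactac
Sprr2e, chr3:92351943-92352142, plus strand: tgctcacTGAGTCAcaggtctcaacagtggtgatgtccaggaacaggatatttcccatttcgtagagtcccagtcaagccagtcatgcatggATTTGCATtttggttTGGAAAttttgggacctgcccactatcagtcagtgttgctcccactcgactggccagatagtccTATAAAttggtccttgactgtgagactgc
Sprr1a, chr3:92485896-92486095, minus strand: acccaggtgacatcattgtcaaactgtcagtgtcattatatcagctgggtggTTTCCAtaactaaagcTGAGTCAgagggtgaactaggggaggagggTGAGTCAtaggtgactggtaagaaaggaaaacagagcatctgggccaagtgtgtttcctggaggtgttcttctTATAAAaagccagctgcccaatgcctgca
Sprr2a1 stands for the identical copies, Sprr2h for the other Sprr2 member with counts in both cKO libraries, Sprr2e for members without a count and Sprr1a for the member present in control skin.

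The AP-1 site was in the windows of 5 of 10 members (Sprr2d, Sprr2e, Sprr2h, Sprr2i and Sprr1a), against 4.46% of all 32851 mouse windows of the same length. The octamer was in 4 of 10 (Sprr2d, Sprr2e, Sprr2h and Sprr2i), against 1.6% of all windows. In these 4 genes the 2 motifs kept their places, with the AP-1 site 193 to 198 bases and the octamer 108 to 109 bases before the start, and the TATA box 29 bases before it. The NFAT core was in 8 of 10, against 18.6% of all windows, and the TATA box in 7 of 10, against 12.4%. The windows of Sprr2a1 and Sprr2a2 were identical over 250 bases, and that of Sprr2a3 was identical to both over 222 bases after a shift of the start. They held 2 matches to the NFAT core and none to the AP-1 site or the octamer. The RefSeq start of Sprr2a1 lies 85 bases before the start of a short first exon. GENCODE M21 gives that exon to a transcript of Sprr2a2. A TATA box stands 29 bases before this second start. No AP-1 or octamer match was found up to that second start either. Sprr2d and Sprr2e were identical at 88.0% of 250 bases, the closest pair outside the Sprr2a copies. A motif match is a description of the letters and does not show that a factor binds there.

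**Figure D1:**
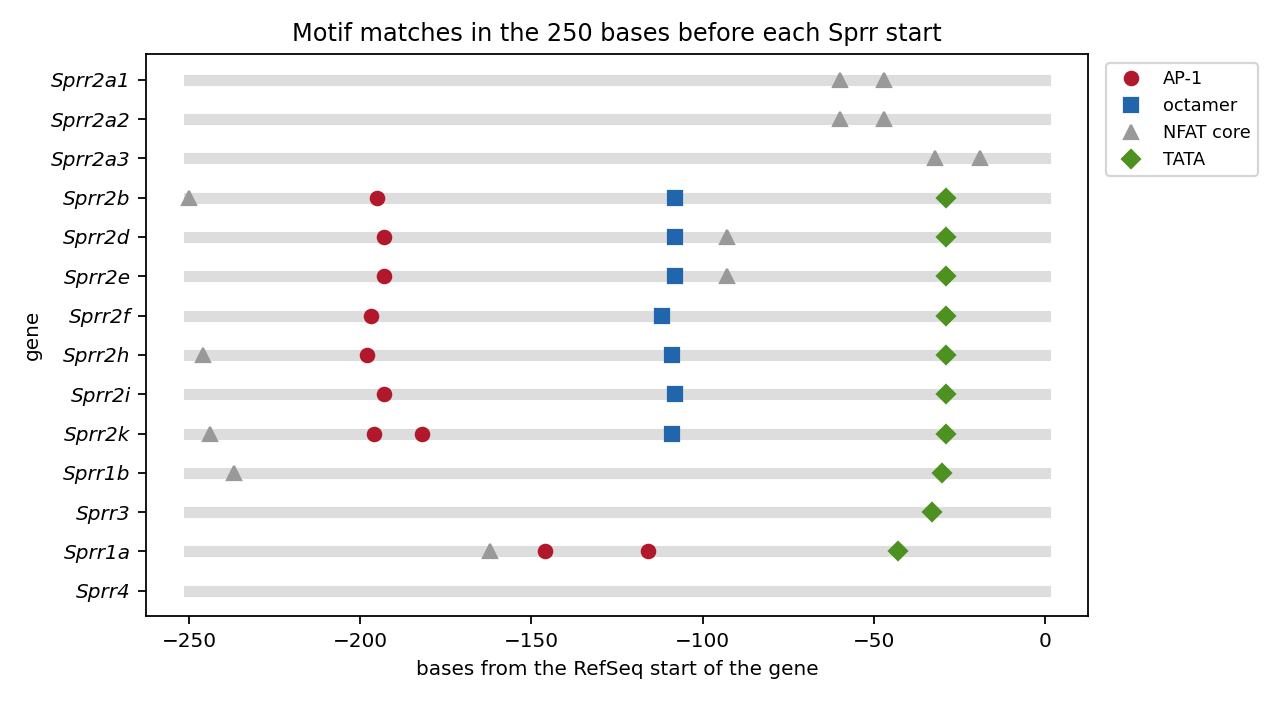
Positions of matches to the AP-1 site, octamer, NFAT core and TATA box (symbols) in the 250 bases before the RefSeq start of 14 Sprr genes; the x axis is the distance from the start in bases. Sprr2b, Sprr2d, Sprr2e, Sprr2f, Sprr2h, Sprr2i and Sprr2k show the same order of AP-1, octamer and TATA matches, and the Sprr2a copies hold NFAT core matches alone.

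The libraries were shallow, with totals of 118858 to 322426 counts, and a count of 0 allows up to 3 counts. Those 3 counts equal 12.13 and 33.72 CPM in the first and second cKO library and 16.01 and 9.58 CPM in the first and second control library. CPM here is the usual library-size scaled count after TMM, a method that sets library sizes so that most genes do not differ. All intervals and limits cover counting error only. Counts of Stim1 were 23 and 6 in cKO versus 24 and 62 in control, and those of Stim2 were 0 and 1 versus 3 and 18, so each cKO CPM lay below each control CPM. The label of epidermis was checked against 10 keratinocyte markers, all of which had counts (0.8% to 1.4% of the cKO libraries, 1.06% to 1.47% of the control libraries). Summed markers of some other cell types were lower in both cKO libraries. All 10 skeletal muscle markers had counts, 11 and 12 in sum in cKO against 282 and 326 in control. Of these markers edgeR called 4 of 7 tested ones lower, against 0.189% of all tested genes. Of 12 hair shaft and inner root sheath markers in the table, 7 had counts, 137 and 41 against 308 and 514, and Krt27, Krt73, Krt31, Krt35 and Krtap11-1 were at 0. Most of these hair counts came from Tchh, the trichohyalin gene, with 99 and 26 against 257 and 398. Of the hair markers 0 of 3 tested were called. The 8 T cell markers took 0.023% and 0.0185% of the cKO counts and 0.0354% and 0.0279% of the control counts. Of 8 neutrophil markers, 6 (Ly6g, Csf3r, Cxcr2, Ngp, Camp and Ltf) were at 0 in all libraries, and the rest had 0 and 2 counts against 6 and 10. For sebocytes, Langerhans cells, fibroblasts, endothelium and melanocytes the shares of the 2 groups overlapped. The part of these other cell types in the results that follow was not tested. In bulk RNA, fewer cells of a type and less RNA per cell cannot be told apart. The labels do not say whether replicates came from separate mice, so p-values measure only the spread between these libraries.

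In control epidermis the family was nearly 1 gene. Sprr1a, an envelope precursor known from differentiating and injured keratinocytes, had 55 and 62 counts, or 293.5 and 198.0 CPM. Each of the other 9 members had at most 3 counts in either control library. Sprr1a held 87.3% of the members' counts in control replicate 1 (95% Wilson interval 76.9 to 93.4%) and 93.9% in control replicate 2 (85.4 to 97.6%). In cKO epidermis the Sprr2a copies were the larger part of the counts. Sprr1a held 11.8% in cKO replicate 1 (9.53 to 14.4%) and 32.8% in cKO replicate 2 (28.7 to 37.1%), and the Sprr2a copies held 84.0% and 64.3%. With Sprr2a1 alone for the 3 copies, Sprr1a held 21.8% and 50.7% in cKO and 90.2% and 95.4% in control. The shares of the 2 groups did not overlap on either count. All 10 members together took 0.235% and 0.398% of the cKO counts and 0.0315% and 0.0205% of the control counts.

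**Figure D2:**
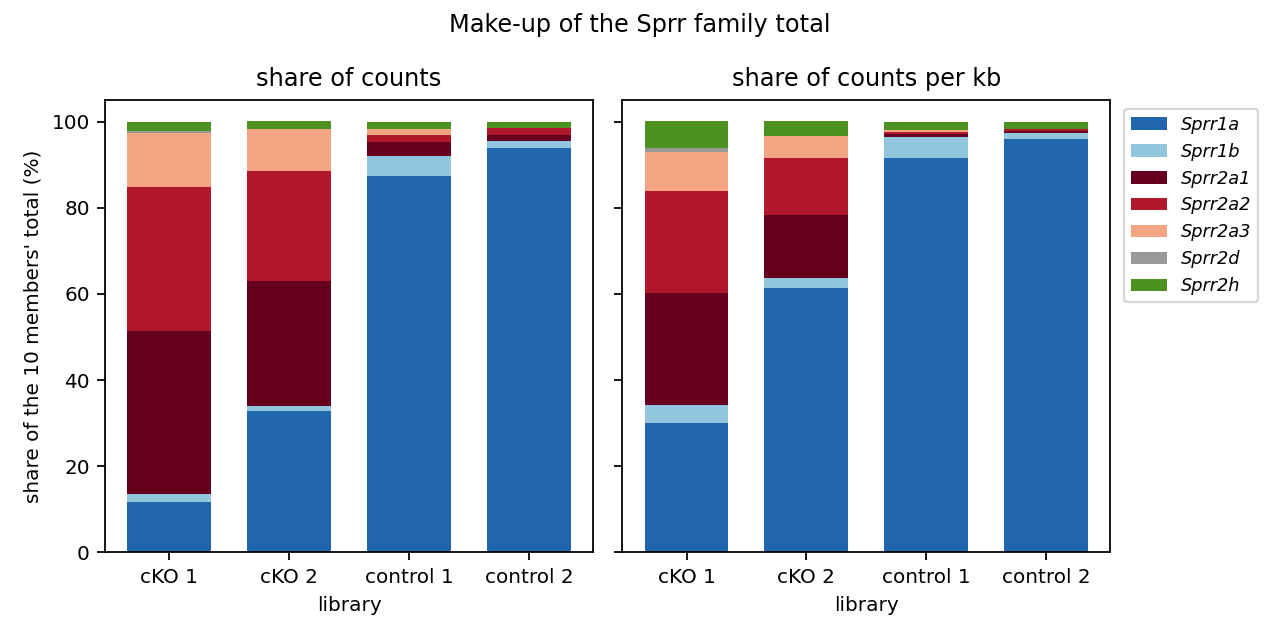
Share of each member in the total of the 10 members (y axis, percent) in each library, as counts (left) and as counts per kb of merged exon length (right); members with no count have no segment. Sprr1a fills 87.3% and 93.9% of the control counts, and the 3 Sprr2a copies fill 84.0% and 64.3% of the cKO counts.

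Sprr2a1 (ENSMUSG00000078664) was counted 252 and 137 times in cKO versus 2 and 1 times in control. These are 1019 and 1540 CPM against 10.67 and 3.19 CPM. Both cKO libraries were far above both control libraries, and the higher level was in cKO replicate 2. Group means were 1279 ± 368 CPM for cKO (SD, n = 2) and 6.93 ± 5.29 CPM for control (SD, n = 2). The pooled counts gave a 193-fold ratio with an exact 95% counting interval from 65.6 to 940, wide because only 3 counts came from control. The fitted log2 fold change of Sprr2a1 was 7.56 with a standard error of 0.68.

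Sprr2a2 (ENSMUSG00000068893), the identical copy, was counted 221 and 120 times in cKO and once in each control library, or 893.6 and 1349 CPM against 5.34 and 3.19 CPM. Its log2 fold change was 7.92 with a standard error of 0.68. Sprr2a3 (ENSMUSG00000074445) was the lowest of the copies, with 84 and 47 counts in cKO against 1 and 0. These are 339.6 and 528.2 CPM against 5.34 and 0 CPM, and its log2 fold change was 7.34 with a standard error of 0.82. For neither gene did the groups overlap. The counts of the copies kept similar proportions in both cKO libraries. Sprr2a1 over Sprr2a2 was 1.14 in each, with 95% intervals of 0.948 to 1.37 and 0.887 to 1.47. Sprr2a3 over Sprr2a1 was 0.333 (0.257 to 0.428) and 0.343 (0.241 to 0.481). These are ratios of counts and not of transcripts, since reads from the shared ends do not tell Sprr2a1 from Sprr2a2. The intervals treat the counts of the copies as separate reads, which fails if a read counts for more than one copy. The counts of the 3 copies summed to 557 and 304 in cKO and 4 and 2 in control, with a log2 fold change of 7.76 and a standard error of 0.67.

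The Sprr2 members outside the copies were low or at 0. Sprr2h (ENSMUSG00000046259) was counted 15 and 8 times in cKO versus 1 and 1 in control, or 60.65 and 89.91 CPM against 5.34 and 3.19 CPM. The groups did not overlap, and the pooled ratio was 17.1 with a counting interval from 4.23 to 150.0. Its log2 fold change of 3.99 had a standard error of 1.13. Sprr2d had 2 counts in cKO replicate 1 and 0 in the other libraries. Sprr2e and Sprr2i had 0 counts in all 4 libraries, so a level of up to 33.72 CPM in cKO replicate 2 was not detectable. The promoter windows printed above for Sprr2h and Sprr2e hold the same AP-1, octamer and TATA letters at nearly the same places.

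Sprr1a (ENSMUSG00000050359) was counted 78 and 155 times in cKO versus 55 and 62 times in control, or 315.4 and 1742 CPM against 293.5 and 198.0 CPM. The cKO libraries differed from each other more than cKO replicate 1 differed from control replicate 1. Group means were 1029 ± 1009 CPM for cKO (SD, n = 2) and 245.7 ± 67.5 CPM for control (SD, n = 2), so the cKO spread was close to the cKO mean. The log2 fold change was 2.04 with a standard error of 0.65, and it was 0.38 without cKO replicate 2. The ratio of Sprr2a1 to Sprr1a counts was 3.23 in cKO replicate 1 (95% interval 2.5 to 4.22) and 0.884 in cKO replicate 2 (0.697 to 1.12). The 2 knockout libraries thus differed in this ratio beyond counting error. In control the ratio was 0.0364 (0.0043 to 0.138) and 0.0161 (0.000402 to 0.0932).

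Sprr1b (ENSMUSG00000048455), the second Sprr1 gene, had 11 and 6 counts in cKO against 3 and 1. These are 44.48 and 67.43 CPM against 16.01 and 3.19 CPM. The groups did not overlap, and the pooled ratio was 6.33 with a counting interval from 2.06 to 25.8. Sprr3, which is known from the lining of the mouth and oesophagus, had 0 counts in all 4 libraries.

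Of the 10 members, 7 had a count and 5 passed the filter on low counts, while Sprr1b, Sprr2d, Sprr2e, Sprr2i and Sprr3 did not. In edgeR's quasi-likelihood test over all genes, 3 members (the Sprr2a copies) were called higher and 0 lower, against 0.66% of the 4243 tested genes called higher and 0.189% called lower. With limma-voom 0 members were called. Both cKO libraries exceeded both control libraries in 6 of all 10 members. Among tested genes this held for 5 of the 5 members and for 18.9% of all genes. The members were chosen on this contrast, so nothing is read from these counts.

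**Figure D3:**
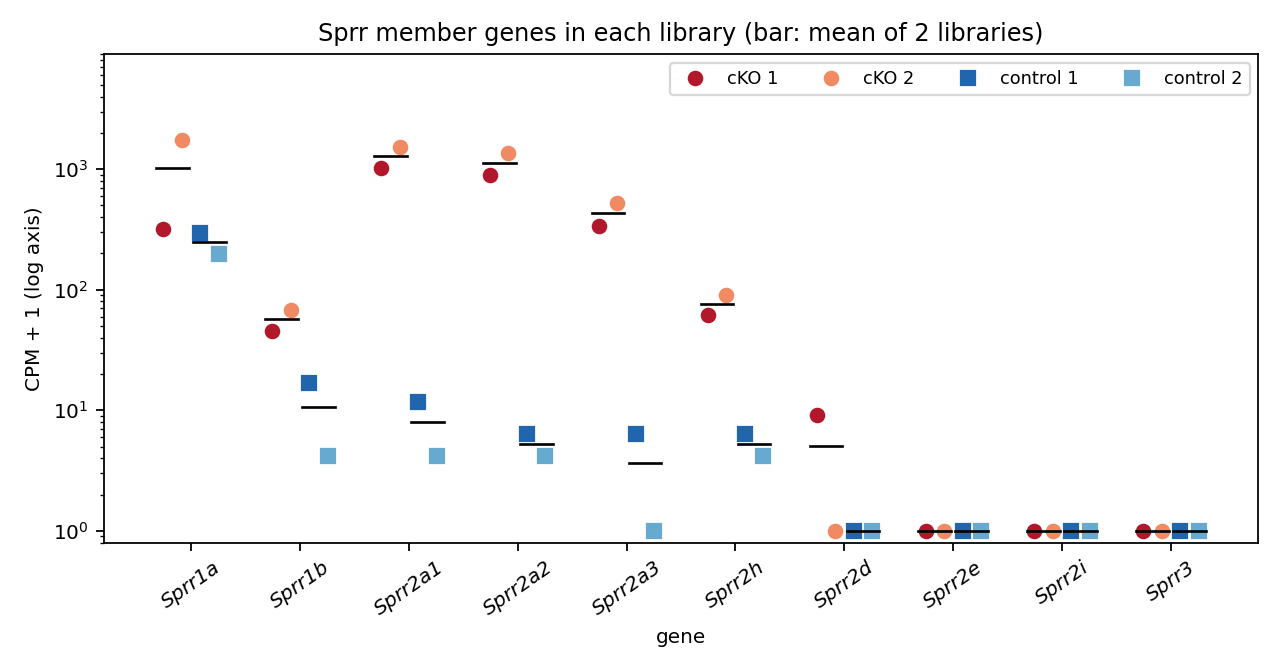
CPM plus 1 of the 10 members (log y axis) in the 2 cKO (circles) and 2 control (squares) libraries, with a bar at each group's mean. The Sprr2a copies lie at 339.6 to 1540 CPM in cKO and at 10.67 CPM or less in control, whereas 1 of the 2 cKO libraries of Sprr1a lies beside the controls.

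The order of the levels depended on the scale. Counts from 3′ libraries do not grow with transcript length in the way counts over whole transcripts do. The merged exon length of the Sprr2a copies (2883 to 3003 bases) includes a long second exon. The short transcripts of Sprr2a2 and Sprr2a3 lack it, and for Sprr2a1 GENCODE M21 gives the long transcript alone. Per kb of that length, Sprr1a was the highest member in every library, at 391 and 2161 CPM per kb in cKO and 364 and 246 in control. Sprr2a1 followed in cKO with 339 and 513 CPM per kb. In cKO replicate 1 these 2 levels were close, and Sprr2a2 was just below them at 307 CPM per kb. Sprr2a3 (118 and 183 CPM per kb), Sprr2h (80.7 and 120) and Sprr1b (53.6 and 81.2) came next in the same order in both cKO libraries. Over the 2 cKO libraries the ranges of neighbours in this order overlapped, except between Sprr2a2 (307 and 463) and Sprr2a3. Per kb, the Sprr2a copies held 58.7% and 32.9% of the family total in cKO and 1.82% and 0.844% in control. The order of the 2 groups in that share was the same as in counts.

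The 7 Sprr genes that are not members were low as well. Sprr2b, the neighbour of Sprr2a3, was counted 4 and 3 times in cKO and never in control. With the control group set at a limit of 3 counts, the ratio was 3.47. That ratio leaves out the counting error of the cKO counts, so it is not a lower bound. Sprr2f had 0 and 3 counts against 0 and 1. Sprr2c-ps, Sprr2g, Sprr2j-ps, Sprr2k and Sprr4 had 0 counts in all 4 libraries. Some of the Sprr2b counts could come from Sprr2a reads, since 403 of 451 stretches at its end were unique and the rest were shared with the copies.

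The genes on either side of the Sprr row differed in both directions, by less than the Sprr2a copies and Sprr2h. The nearest 3 genes with at least 10 counts on each side were described. On the Sprr2a side, Prr9, a proline-rich gene, had 56 and 58 counts in cKO against 417 and 565, with a log2 fold change of -2.24 (SE 0.53, edgeR adjusted p = 0.0799). Lor, which encodes loricrin, the main envelope protein, had 1128 and 170 counts against 142 and 1400, and its groups overlapped. Its log2 fold change was 0.31 (SE 0.67, edgeR adjusted p = 0.988), and it turned to -0.50 with cKO replicate 1 left out and to -0.46 with control replicate 1 left out, but was 2.10 with control replicate 2 left out. Gm43235, a pseudogene, had 4 and 1 counts against 2 and 4. On the Sprr4 side, 2310046K23Rik had 126 and 40 counts against 21 and 44, with a log2 fold change of 1.92 (SE 0.44, edgeR adjusted p = 0.0724). The call of Prr9 changed with the processing. In edgeR it was lower with an adjusted p of 0.0177 with library totals, 0.000565 with no count filter and 0.0159 with the 10 CPM filter. It also passed in DESeq2 (adjusted p = 0.00495) and limma-voom (0.0368). Prr9 did not pass in edgeR with DESeq2 size factors (adjusted p = 0.078), upper-quartile factors (0.0502) or the replicate number as a block (0.281). 2310046K23Rik passed in limma-voom (adjusted p = 0.0462), but not in DESeq2 (0.0609) or in edgeR with that block (0.365). With libraries left out in turn, the log2 fold change ranged from -3.14 to -1.67 for Prr9. For 2310046K23Rik it ranged from 1.77 to 2.10. Ivl, which encodes involucrin, an early envelope scaffold, had 152 and 47 counts against 257 and 397, with a log2 fold change of -1.20 (SE 0.42, edgeR adjusted p = 0.359). 2210017I01Rik had 5 and 0 counts against 4 and 7. Within the row itself, 7 genes that are not Sprr genes had 31 counts in sum over the 4 libraries.

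**Figure D4:**
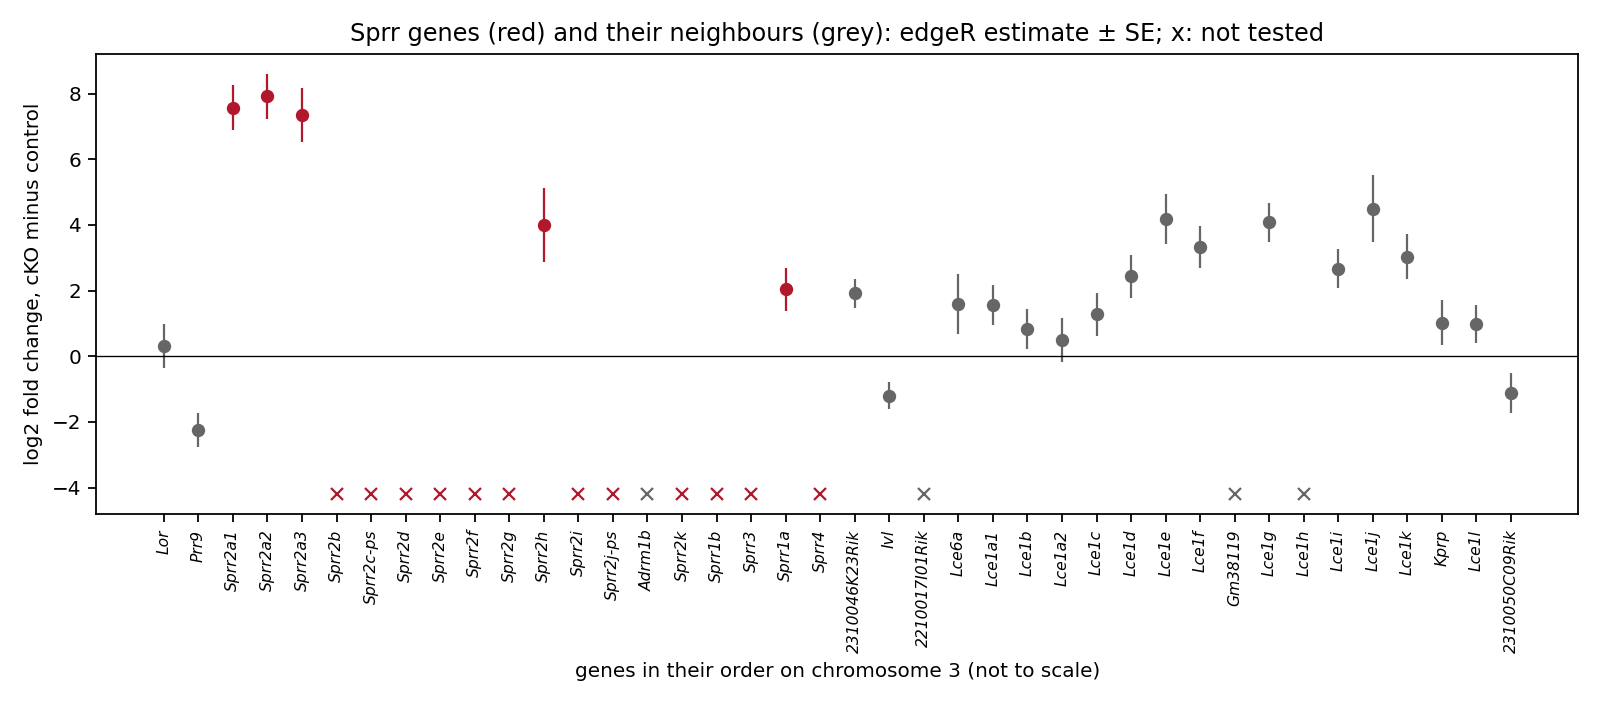
Log2 fold change, cKO minus control, with its standard error (edgeR; y axis) for the Sprr genes (red) and for genes with at least 10 counts around them (grey), in their order on chromosome 3; crosses mark genes that were not tested. The Sprr2a copies lie at 7.34 to 7.92, while Prr9 lies at -2.24 and Ivl at -1.20.

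The envelope partner list held 49 genes, chosen by name as envelope proteins, transglutaminases or genes like them, with every gene named Lce. A link to Sprr proteins or to the epidermal envelope was not checked for each gene. Of the 49 genes, 47 had a count and 36 were tested. In edgeR 7 rose in cKO and 1 fell, where 0.66% of all tested genes were called higher and 0.189% lower. The list had a median log2 fold change of 1.04 against 0.01 over all tested genes. It was written with earlier results of these data known, so this contrast with the background is a description. Late cornified envelope genes, small proteins of the outermost living layer, gave 4 of the calls among 15 tested of 21 listed. Lce3c rose from 3 and 6 counts in control to 54 and 33 in cKO, by 3.96 on the log2 scale (SE 0.59, edgeR adjusted p = 0.00378). Lce1e, Lce1g and Lce1f rose by 4.18, 4.08 and 3.33 on the log2 scale. These genes are close copies of one another, and how shared reads were counted was not checked for them.

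The S100-fused proteins, large proteins of the granular layer or hair sheath, gave 3 calls among 6 tested. Flg, which encodes filaggrin, rose from 20 and 98 counts in control to 2218 and 479 in cKO, by 5.07 on the log2 scale (SE 0.62, edgeR adjusted p = 0.000593). Hrnr rose by 2.99 on the log2 scale. Tchhl1, a relative of trichohyalin, fell by 2.36 on the log2 scale, with 43 and 13 counts against 158 and 258. The hair markers, at 137 and 41 counts against 308 and 514, were lower in the same libraries. Most of those counts came from Tchh, the trichohyalin gene, with 99 and 26 against 257 and 398. Tchh is itself one of the S100-fused genes of the partner list. The part of the hair markers in the Tchhl1 value was not tested. Casp14, a protease of the cornifying layer that takes part in filaggrin breakdown, rose from 0 and 2 counts in control to 48 and 11 in cKO, by 5.19 on the log2 scale (SE 0.88, edgeR adjusted p = 0.0123). Lce1j, the third of the list by size, had 31 and 6 counts against 0 and 2, and its log2 fold change of 4.5 did not pass (edgeR adjusted p = 0.0677). It passed with no count filter (edgeR adjusted p = 0.00596), with the 10 CPM filter (0.0265) and without cKO replicate 2 (0.00462).

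Of the 6 transglutaminases, the enzymes that cross-link Sprr proteins, only Tgm3 had enough counts to be tested, with a log2 fold change of -2.15 (SE 0.76, edgeR adjusted p = 0.368). Tgm1, the membrane-bound enzyme of the envelope, was counted 14 and 0 times in cKO versus 0 and 10 times in control.

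Several of these calls changed when a library was left out. Such a fit has 1 library in a group, which is assumed to vary like the group with 2. In place of 7 genes, 4 rose when cKO replicate 1 was left out, 12 when cKO replicate 2 was left out and 11 when control replicate 2 was left out. The 1 that fell was 3 without cKO replicate 1 and 0 without control replicate 2, where Tchhl1 had an edgeR adjusted p of 0.0533. Without cKO replicate 1, Casp14 (edgeR adjusted p = 0.113), Lce1e (0.468) and Hrnr (0.0737) did not pass. Without control replicate 1, Lce1f (edgeR adjusted p = 0.0708) and Hrnr (0.104) did not pass. The sizes moved too. Without cKO replicate 1 the log2 fold change was 2.25 for Lce1e, 2.55 for Lce1f, 3.46 for Lce1g and 1.79 for Hrnr. Without cKO replicate 2 it was 4.88 for Lce1e and 3.60 for Hrnr. Without control replicate 1 it was 4.55 for Casp14 and 2.65 for Lce1f. Without control replicate 2 it was 6.06 for Flg, 4.96 for Lce1f and 3.64 for Hrnr. In that fit Casp14 was at 7.84 and Lce1j at 7.14 with 0 control counts left, values that depend on the prior count. In limma-voom Lce3c (adjusted p = 0.189), Lce1g (0.148), Lce1e (0.443) and Casp14 (0.348) did not pass.

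The regulator list held 34 transcription factors that are known to act on Sprr genes or on keratinocyte differentiation, and all had a count. Of these 23 were tested, and 0 were called by edgeR, DESeq2 or limma-voom, with 1 at an unadjusted p under 0.05. With 0.66% of all tested genes called higher and 0.189% lower, 0 of 23 is near the background. Their median log2 fold change was 0.15, against 0.01 over all tested genes. Ehf, an ETS factor of epithelia, had 65 and 4 counts in cKO against 1 and 16, with a log2 fold change of 2.40 (SE 0.84, edgeR adjusted p = 0.363). Without cKO replicate 2 its edgeR adjusted p was 0.000972, in a fit where the spread comes from the control libraries alone, and without cKO replicate 1 its log2 fold change was 0.50. Without control replicate 2 it was 4.79. Fos had 1 and 6 counts against 23 and 11, with a log2 fold change of -1.51 (SE 1.06, edgeR adjusted p = 0.809). Junb had 8 and 2 counts against 14 and 20, with a log2 fold change of -1.24 (SE 0.76, edgeR adjusted p = 0.743).

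By group, the 5 tested AP-1 genes ranged from -1.51 to 0.73 on the log2 scale. The POU factors Pou2f3 and Pou3f1, of the kind that binds octamers, were at 0.13 and 0.15. The 3 tested NFAT genes, Nfatc2, Nfatc3 and Nfat5, ranged from 0.18 to 0.25. They belong to a family in which some proteins, but not all, are switched on by calcium through calcineurin. RNA levels do not report on the activity of these proteins.

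**Figure D5:**
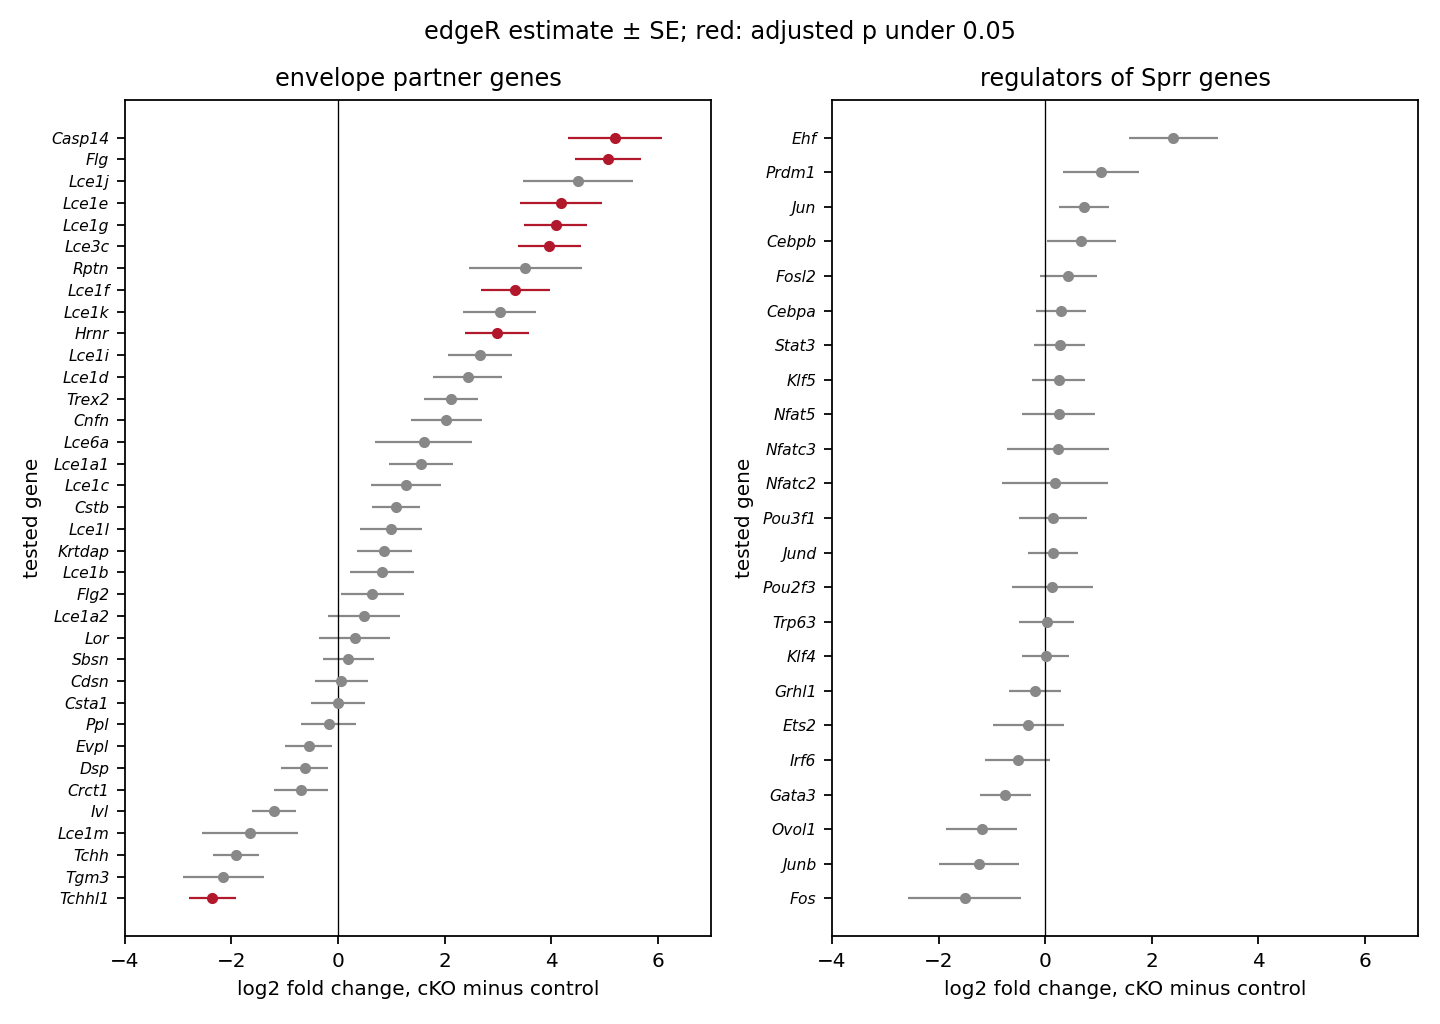
Log2 fold change, cKO minus control, with its standard error (edgeR; x axis) for the tested envelope partner genes (left) and tested regulators (right), sorted by value; red marks an adjusted p under 0.05. On the left, 7 genes lie above 0 and 1 below 0 in red, and on the right there are none.

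Genes outside the family were ranked by how closely their profile followed the summed members over the 4 libraries, as the root mean square difference of centred log2(CPM + 5) values. The 5 closest protein-coding or unclassified genes were Gpr15lg (0.267), Lce3c (0.321), Chil4 (0.454), Pyy (0.533) and Krt6a (0.54). Gpr15lg, which encodes a ligand of the receptor GPR15, was counted 14 and 9 times in cKO and never in control. Chil4, a chitinase-like protein, had 19 and 15 counts against 0 and 0, and Pyy, which encodes peptide YY, had 28 and 30 against 2 and 0. Krt6a, a keratin of stressed and wound-edge epidermis, had 117 and 96 counts against 4 and 9, and it has a near-identical partner in Krt6b. With log2(CPM + 1), 2 of the 5, Lce3c and Krt6a, stayed among the closest 5. The profile has only 4 points and 2 groups, so many genes with this contrast could rank high.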

How the data were processed

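Raw counts per gene were deposited by the authors as 1 table for 4 libraries. Per the submitters' processing notes, the tools were Trim Galore 0.6.7, Trimmomatic 0.39, cutadapt 3.7, STAR 2.7.10a and featureCounts 2.0.1, with GRCm39. Per the labels, libraries came from a QIAseq UPX 3′ kit. The use of strand and of molecular identifiers, the read length and the treatment of reads with several alignments are not given in the sources used here. The counts were used as deposited, and the feature length in the table is the merged exon length per the file headers.

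The 4 libraries were grouped by genotype (2 cKO, 2 control) and fitted in edgeR 4.0.16 (R 4.3.3). Genes were kept with filterByExpr (minimum count 10, total 15), which left 4243 genes with 87.6% of all counts, scaled with TMM (factors 0.833 to 1.12) and tested by quasi-likelihood with a genotype term alone. The Benjamini-Hochberg adjustment ran over all tested genes, with a threshold of 0.05. The biological coefficient of variation was 35.5%. On simulated data from these libraries, 83.5% to 92.5% of 200 genes changed by 3 on the log2 scale were recovered, and 4.02% to 6.38% of the calls were unchanged genes. The simulated counts were drawn from the means and dispersions that edgeR had fitted. They therefore do not show the error rate of the calls in the real libraries. Alternatives used DESeq2 1.42.0 size factors and test, limma-voom (limma 3.58.1), other scalings and filters, a block and each library left out. The members, gene lists, motifs and tests were chosen with earlier results of these data known. Named genes are all Sprr genes, called genes and the 3 largest changes of each list, the 5 closest profiles and 3 neighbours on each side. Subgroups of the lists, Tgm1 and the POU genes were named after their values were seen.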

Additional observations from a re-analysis of the deposited data

How the results depend on the processing

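The log2 fold changes of the 5 tested members were positive in all 65 values over 13 alternatives. The members were chosen on this contrast and every alternative refits the same libraries, so nothing is read from the shared sign. They ranged from 6.15 to 9.54 for the Sprr2a copies, from 3.44 to 4.29 for Sprr2h and from 0.38 to 2.79 for Sprr1a. The 9.54 is that of Sprr2a3 without control replicate 1. With 0 control counts left for it, that value depends on the prior count. The summed Sprr2a copies gave 7.01 to 8.67 and the summed members 3.31 to 4.24 when libraries were left out in turn. The summed members gave 3.194 with the largest copy in place of the sum. Members called were 3 or 4 without single libraries and 0 with limma-voom.

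The counts of genes called in cKO, 28 higher and 8 lower, moved with the settings. Lower calls were 15 with library totals and 15 with the 10 CPM filter (a mean of 10 CPM or more, on whole library totals without TMM). Without a count filter there were 49 higher and 26 lower, and with limma-voom 12 and 3. Leaving out a library gave 27 to 48 higher and 4 to 28 lower. Partner genes called higher (7 in the report) were 12 without a filter, 11 with the 10 CPM filter, 3 with limma-voom and 4 to 12 without single libraries. Partner genes called lower (1) were 2 with library totals, no filter, the 10 CPM filter, DESeq2 or limma-voom, and 0 to 3 without single libraries. Regulators called were 0 to 1 without single libraries. Lor turned to -0.496 without cKO replicate 1 and to -0.461 without control replicate 1, and reached 2.099 without control replicate 2. The cause of these shifts was not tested.

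The labels do not say that same-numbered libraries belong together, and their deviations from the group means had a correlation of -0.2, so the numbers were not used as pairs. With the replicate number as a block, 16 genes were called higher and 1 lower, with 3 partner genes higher and 0 lower; Lce1e, Lce1f, Hrnr, Tchhl1 and Casp14 did not pass. A block with crossed numbers, chosen after seeing the data, called 90 higher and 57 lower, with 15 partner genes higher and 5 lower and 1 regulator. At this depth 5 of 10 members could not be tested.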
